A study of Mus musculus with 24 samples.

Results

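The comparison set the middle zone of the mouse jejunal villus, V4, against the zone just below it, V3 (bottom-middle), over all genes. It used the 4 V3 and the 4 V4 libraries, 8 of the 24 libraries of the study, taken by their zone label and paired by mouse. The study divided jejunal epithelium into 6 zones, from V1 at the bottom of the villus to V6 at its tip, and sequenced 1 bulk library per zone from each of 4 mice. All animals were C57BL/6 males aged 10 weeks on regular chow, with no genetic or drug treatment given in the labels, so the zone is the only labelled difference between V3 and V4. Per the labels' protocols, EDTA freed the epithelial cells, which were then sorted by FACS on staining for 2 surface proteins, CD73 and CD26. Polyadenylated RNA was then made into libraries by mcSCRB-seq, in which each RNA molecule carries its own tag (unique molecular identifier, UMI) and is counted once.

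The villus is a finger-like fold of the small intestine covered mainly by enterocytes, the absorptive cells. Enterocytes are born in the crypt, move up the villus over a few days and are shed at the tip, so that position on the villus also orders cells by age. Along the way they meet changing signals, among them BMP from the underlying stroma, and they are known to shift from one set of transport and digestion genes to another. The step from V3 to V4 is the part of this path that crosses the middle of the villus.

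The 8 libraries held 806541 to 1910040 UMIs, and the smallest of all 24 was V4 of mouse 4. The number of genes detected was lower in V4 than in V3 in 4 of 4 mice (13599 ± 435 against 13088.8 ± 777 genes, SD, n = 4; exact two-sided sign-flip permutation test p = 0.13, the smallest p that 4 pairs can give). Levels are given below as CPM, UMI counts scaled to a common total with TMM factors, which lines libraries up by the bulk of their genes. Differences are log2 V4 minus V3 ± SE from edgeR's quasi-likelihood test with mouse as a term. A gene is said to have risen or fallen where its Benjamini-Hochberg adjusted p over the 9328 genes tested is under 0.05. Because these are bulk samples, fewer cells of a type and less RNA per cell cannot be told apart.

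The sort proteins were checked through their transcripts. Nt5e, the gene of CD73, had 4.16, 4.31, 5.51 and 3.16 CPM in V3 of mice 1 to 4 and 48.8, 8.94, 40.2 and 27.2 CPM in V4. All 4 V4 libraries lay above all 4 V3 libraries (log2 difference 2.82 ± 0.34, adjusted p = 1.08e-05), with mouse 2 showing the smallest step. Dpp4, the gene of CD26, had 488, 381, 496 and 501 CPM in V3 and 509, 487, 478 and 541 in V4. Its groups overlapped, and it was not called (0.12 ± 0.14, adjusted p = 0.747). The zone above V4 was not placed as clearly: in mouse 4, Nt5e had 27.2 CPM in V4 and 20.9 in V5. Since cells were sorted on both proteins, these values check the labels and are no separate result.

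Transcripts of enterocytes were present in all 8 libraries, and so were those of other epithelial cells. The summed level of 10 enterocyte markers was higher in V4 in 4 of 4 mice (57269.8 ± 10770 against 76475 ± 16763 CPM, SD, n = 4; exact p = 0.13), and it includes Apoa1, a very abundant gene described below. Goblet cell markers, which include the mucin gene Muc2, summed to 11832 ± 5052 CPM in V3 and 11825.6 ± 1419 in V4, higher in V4 in 2 of 4 mice (exact p = 1). Paneth cell markers, antimicrobial peptide and lysozyme genes of the crypt base, ranged from 6079 to 22951 CPM in V3 and from 2354 to 25298 in V4, and none of the 9 tested members was called. They moved in opposite directions in mouse 1 (higher in V4 by 18008 CPM) and mouse 3 (fell by 15358 CPM). Markers of dividing cells summed to 221 ± 73.0 CPM in V3 and 163 ± 61.6 in V4 (exact p = 0.25). Leukocyte markers summed to 99.2 ± 110.1 and 111 ± 58.2 CPM, and enteroendocrine markers to 1101 ± 662 and 663 ± 301 CPM. Stromal and endothelial markers with a row in the table (6 of 8) summed to between 2.44 and 8.23 CPM over the 8 libraries, and Col1a1 was at 0 in all 8. Red cell markers (4 of 5) summed to at most 7.64 CPM. The mitochondrial share of UMIs was 8.04 ± 2.21% in V3 and 9.45 ± 2.87% in V4, higher in V4 in 2 of 4 mice (exact p = 0.5). The part of these cell types in the results was not tested beyond the fits with a goblet or a Paneth score as a covariate, which called 174 and 198 genes higher and 19 and 22 lower.

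**Figure D1:**
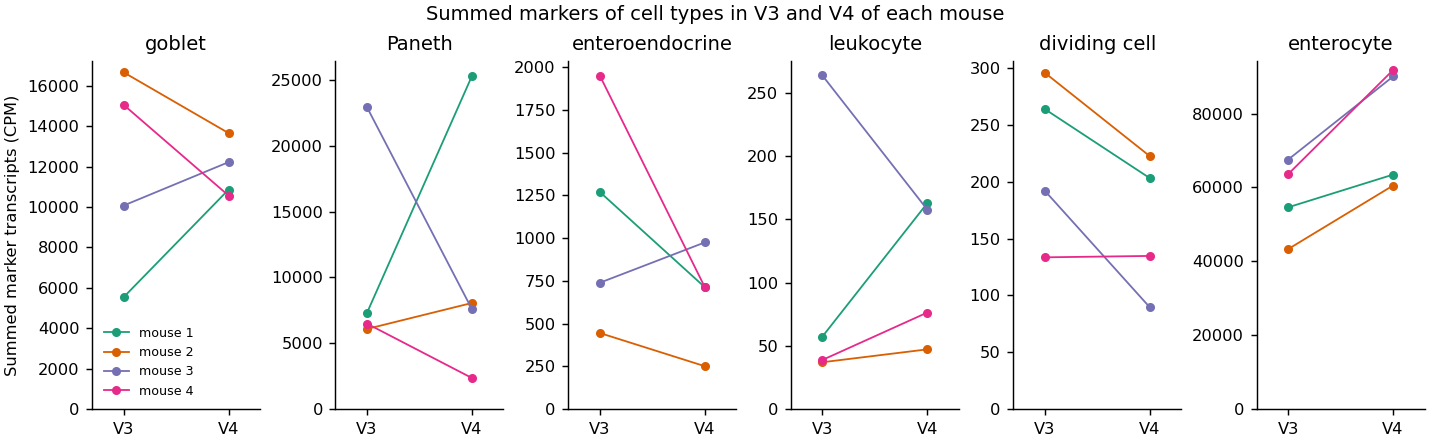
Summed markers of 6 cell types (y axis, CPM) in V3 and V4 (x axis), with 1 line per mouse. The enterocyte lines rise in 4 of 4 mice, while the goblet, Paneth, leukocyte and enteroendocrine lines cross, with mice 1 and 3 moving in opposite directions for Paneth markers.

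From V3 to V4, 180 genes rose (1.93% of those tested) and 18 fell (0.193%), 198 in all (2.12%). The rises had a median log2 difference of 0.83, a 1.77-fold difference, and 70 of them exceeded 2-fold. They included the purine enzyme gene Ada, the laminin genes Lama3 and Lamb3, and the apolipoprotein genes Apoa4, Apoc3 and Apoa1. The falls had a median of -0.73 and included the transcription factor gene Klf5 and the folding enzyme genes Pdia4 and Pdia6. Of the 180 rises, 176 were higher in V4 in 4 of 4 mice (1228 of all genes tested were, 13.2%), and 105 had all 4 V4 libraries above all 4 V3 libraries (273 of all genes tested, 2.93%). Of the 18 falls, 17 were lower in 4 of 4 mice (1175 of all genes tested, 12.6%) and 7 had no overlap between the zones (135 of all genes tested, 1.45%). The shares over all genes tested stand beside these counts because a called gene is likely to be ordered in this way. Of all genes tested, 4506 had a positive and 4822 a negative difference. Counts of list members given below are to be read beside these numbers and beside the 1.93% and 0.193% called.

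These counts rest on setting each mouse's V4 beside its own V3. Without the mouse term, on the same 24 libraries, 6 genes were higher (0.0643%) and 0 lower, with 440 and 239 genes at an unadjusted p under 0.05. The 6 were Ada, Pmp22, Pmepa1, Susd2, Sfn and Slc9a2. Leaving out a mouse moved the counts most for mice 3 and 4: 31 genes rose and 0 fell without mouse 3 (572 and 305 at an unadjusted p under 0.05), and 37 and 4 without mouse 4. Without mouse 2 they were 115 and 4, and without mouse 1 they were 242 and 27. The split of directions depends on the scaling. With libraries scaled by total UMIs alone, 78 genes were higher and 99 lower, and the median of all genes was -0.16 in place of -0.013 under TMM. All 198 genes kept their direction under that scaling, and 78 of the rises and 18 of the falls kept their call.

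**Figure D2:**
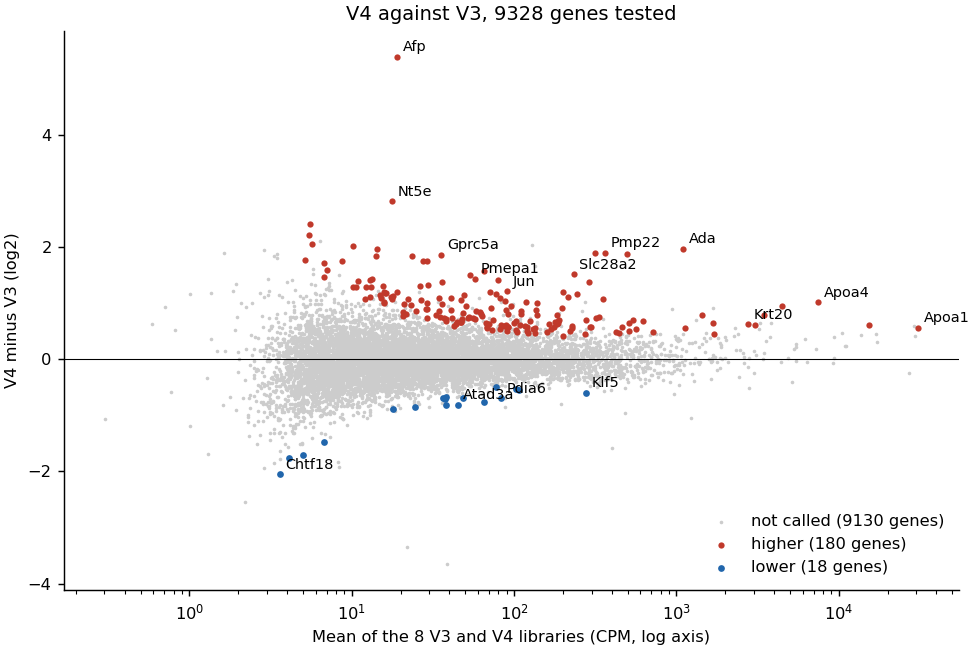
Log2 difference of V4 minus V3 (y axis) against the mean level of the 8 libraries (x axis, CPM, log scale) for 9328 genes. The 180 genes called higher (red) and the 18 called lower (blue) stand out from the 9130 not called (grey), and the called genes of high abundance, such as Apoa4 and Apoa1, lie above 0.

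Among rises in 4 of 4 mice with a mean of 20 CPM or more and an established name, the leading gene was Ada, which encodes adenosine deaminase. Ada had 603, 438, 599 and 208 CPM in V3 of mice 1 to 4 and 1361, 1433, 2363 and 1788 CPM in V4. The zones did not overlap, and the step was a 3.93-fold rise (log2 1.97 ± 0.28, adjusted p = 0.000924, or 0.0305 without the mouse term). Pmp22, a gene of a tetraspan membrane protein best known from myelin, had 272, 134, 149.6 and 80.6 CPM in V3 and 648, 450.2, 595 and 580.0 in V4. It rose in each mouse without overlap (1.90 ± 0.25, adjusted p = 0.000627, or 0.0305 without the mouse term). Gprc5a, which encodes an orphan receptor induced by retinoic acid, had 20.8, 10.5, 18.9 and 9.48 CPM in V3 and 39.96, 47.1, 88.7 and 50.4 in V4. Every V4 library was again above every V3 library (1.87 ± 0.23, adjusted p = 1.01e-05, or 0.0637 without the mouse term). Both genes lie on GRCm38, Pmp22 on the plus strand of chr11:63128982-63159547 and Gprc5a on the plus strand of chr6:135065651-135084709.

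Other rises included genes of cell-surface proteins. Susd2, the gene of a membrane protein with a sushi domain, had 61.3, 29.5, 55.1 and 30.0 CPM in V3 and 103, 115, 125 and 121 in V4. The 4 V4 values lay close together and all above V3 (1.42 ± 0.19, adjusted p = 4.74e-05, or 0.0305 without the mouse term). Clca4a, a gene of the calcium-activated chloride channel regulator family, had 182, 70.2, 211 and 75.1 CPM in V3 and 430.1, 291, 849 and 400.3 in V4 (1.90 ± 0.21, adjusted p = 1.76e-05). Its neighbours Clca4b (0.54 ± 0.13, adjusted p = 0.0243) and the pseudogene Clca4c-ps (1.76 ± 0.34, adjusted p = 0.00743) were also called. These are close copies, and reads shared among them were not told apart here, so the size of each step is uncertain. Muc3, a membrane-bound mucin gene of the brush border, had 124, 129, 125 and 161 CPM in V3 and 231, 255, 375 and 323 in V4. Its V4 values all lay above its V3 values (1.11 ± 0.19, adjusted p = 0.00201). Ceacam18, a gene of the carcinoembryonic antigen family of adhesion molecules, rose by 1.17 ± 0.20 (adjusted p = 0.000924), from 46.1 ± 14.1 to 109 ± 40.8 CPM (SD, n = 4).

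Sfn, the gene of the 14-3-3 protein sigma, which acts in epithelial cell cycle arrest, had 149, 159, 159.9 and 128 CPM in V3 and 279, 321, 399 and 344 in V4. There was no overlap, and the call also held without the mouse term (1.17 ± 0.17, adjusted p = 0.00025, or 0.0238 without the mouse term). Tubb2a, a tubulin gene, rose by 1.76 ± 0.42 (adjusted p = 0.0401) and Ifrd1, a transcriptional co-regulator gene, by 1.58 ± 0.24 (adjusted p = 0.000924). Tubb2a was not called without mouse 2 (adjusted p = 0.0779), mouse 3 (0.316) or mouse 4 (0.129). Without mouse 3 and mouse 4 the call of Clca4c-ps was also lost (adjusted p = 0.205 and 0.057). Clca4b was called without mouse 1 only, with an adjusted p of 0.0593, 0.14 and 0.209 without mice 2, 3 and 4 and 0.0823 under total-UMI scaling. With the V3 and V4 libraries alone, Ada and Pmp22 had adjusted p values of 0.131 and 0.0545. Muc3 and Sfn, chosen after their values were seen, were called without each mouse in turn.

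**Figure D3:**
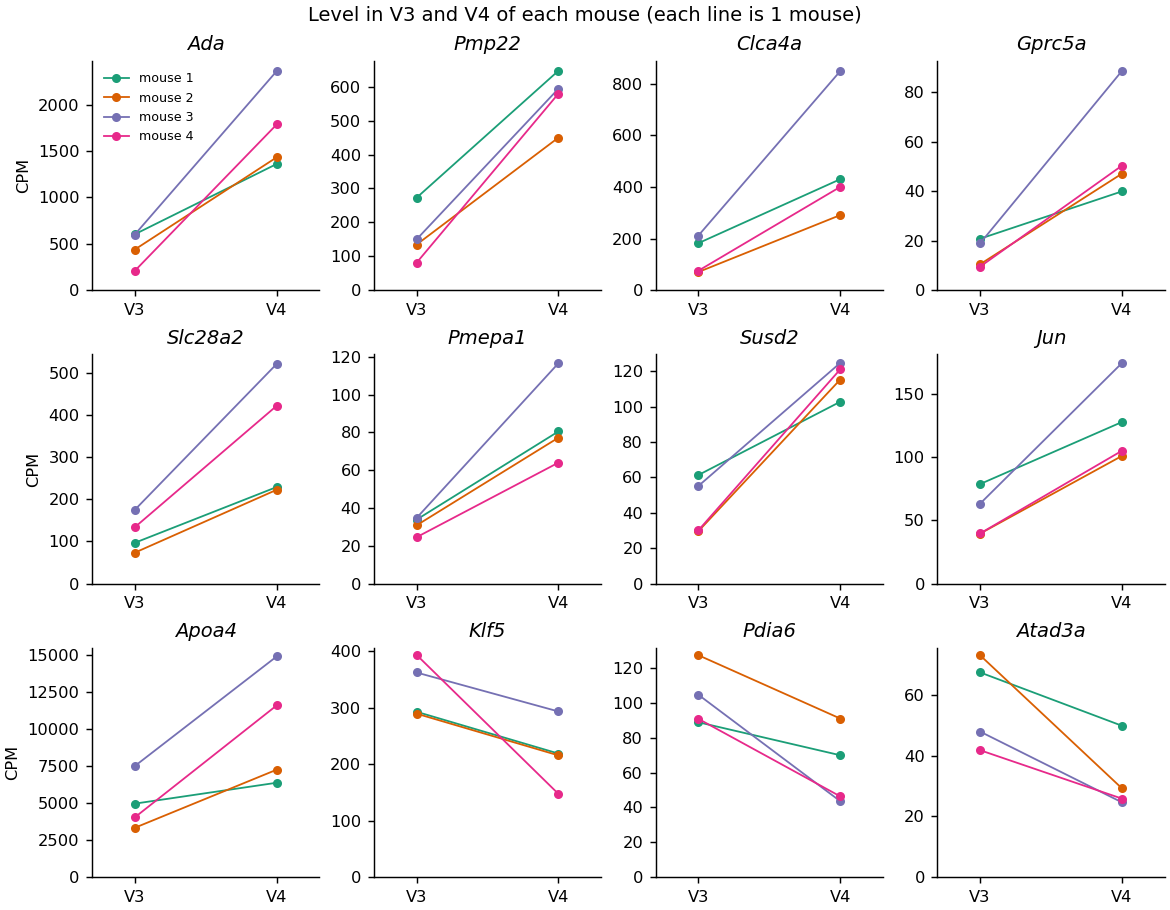
CPM in V3 and V4 for 12 genes, with 1 line per mouse and each y axis starting at 0. The 9 genes in the first panels rise in each of 4 mice, Klf5, Pdia6 and Atad3a fall in each, and mouse 3 has the highest V4 value for Ada, Clca4a, Gprc5a, Slc28a2, Pmepa1, Susd2, Jun and Apoa4.

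Several genes of purine breakdown and uptake rose. Where in or on the cell their products act was not measured. In this path, ecto-enzymes strip phosphates from extracellular nucleotides, the product of Nt5e forms adenosine, Ada turns adenosine into inosine, and transporters bring nucleosides into the cell. Leaving out Nt5e, whose protein the cells were sorted on, 11 members were tested. Of these, 3 rose and 0 fell, beside 1.93% and 0.193% of all genes tested. The median was 0.37 against -0.013 for all genes. The 3 were Ada, described above, Slc28a2 and Enpp3. Slc28a2, the gene of the sodium-coupled purine nucleoside transporter, had 96.7, 73.3, 175 and 134 CPM in V3 and 229, 223, 521 and 422 in V4. The zones did not overlap (1.52 ± 0.34, adjusted p = 0.0317). Enpp3, the gene of an ecto-nucleotide pyrophosphatase, had 206, 92.3, 246 and 98.0 CPM in V3 and 279.7, 245, 677 and 481 in V4, which overlapped between mice while each mouse rose (1.38 ± 0.30, adjusted p = 0.0242). Slc28a1, the pyrimidine nucleoside transporter gene, had 50.05 ± 10.97 CPM in V3 and 45.5 ± 6.05 in V4 and was not called (adjusted p = 0.75). Slc28a2 and Enpp3 lost their calls without mouse 2 (adjusted p = 0.178 and 0.0615), mouse 3 (0.29 and 0.181) and mouse 4 (0.057 and 0.223), and Enpp3 also with the V3 and V4 libraries alone (0.183).

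Several genes that anchor epithelial cells to the basement membrane also rose. Of 13 tested, 5 rose and 0 fell (median 0.42), beside 1.93% and 0.193% of all genes tested. Lama3 and Lamb3 encode laminin chains of the epithelial basement membrane, and both were called. Lama3 had 6.24, 4.31, 8.66 and 3.95 CPM in V3 and 15.9, 11.4, 40.2 and 21.8 in V4 (1.84 ± 0.30, adjusted p = 0.000496). Lamb3 had 4.68, 5.54, 14.2 and 5.53 CPM in V3 and 21.2, 20.3, 20.5 and 14.98 in V4 (1.43 ± 0.31, adjusted p = 0.00873). Neither gene's zones overlapped. Plec, the gene of plectin, which ties keratin filaments to hemidesmosomes, rose from 145 ± 25.0 to 235 ± 21.3 CPM (0.71 ± 0.14, adjusted p = 0.00429). Itgb6, an integrin beta chain gene, rose by 1.09 ± 0.30 (adjusted p = 0.0494). Itga6, an integrin alpha chain gene of hemidesmosomes, had 68.8 ± 23.4 and 73.3 ± 16.6 CPM and was not called (adjusted p = 0.87). Of the 5 rises, 3 were called without mouse 1, 2 without mouse 2, 2 without mouse 3 and 1 without mouse 4 (Lama3). Lama3 without mouse 3 had an adjusted p of 0.0503.

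Cell junction, keratin and microvillus genes gave fewer calls. Of 14 tested genes of adherens junctions and desmosomes, 2 rose (1.93% of all genes tested did) and 12 did not pass the test. A positive difference was found for 14 of 14 (4506 of all 9328 genes tested), with a median of 0.47. Dsp, the gene of desmoplakin, the plaque protein that binds keratin, had 72.8, 50.5, 72.4 and 50.6 CPM in V3 and 110.5, 75.6, 165 and 113 in V4. Its zones did not overlap (0.88 ± 0.18, adjusted p = 0.00546). Jup, the gene of plakoglobin, rose by 0.51 ± 0.13 (adjusted p = 0.0319). Of 6 keratin genes, Krt20 and Krt8 rose, and the median of 0.13 turned to -0.0051 under total-UMI scaling. Krt20, the keratin of differentiated villus cells, had 2323, 2154, 2203 and 2051 CPM in V3 and 3093, 3400.1, 3347 and 3669 in V4 (0.63 ± 0.15, adjusted p = 0.0191), with no overlap. Krt8 rose by 0.45 ± 0.12 (adjusted p = 0.0423), while its partner Krt18 had 241 ± 68.1 and 220.0 ± 52.8 CPM and was not called (adjusted p = 0.723). Of 17 tight junction genes, 0 were called. Dsp, Jup, Krt20 and Krt8 lost their calls without mouse 3 (adjusted p = 0.167, 0.291, 0.152 and 0.297) and without mouse 4 (0.0649, 0.148, 0.171 and 0.209). Krt20 was also lost without mouse 2 (0.0779) and Krt8 without mouse 1 (0.0548), and under total-UMI scaling Jup, Krt20 and Krt8 had adjusted p values of 0.118, 0.0555 and 0.121.

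Of 22 genes of the microvillus core and its tip links, 4 rose (1.93% of all genes tested did) and 0 fell. Positive differences numbered 21 (4506 of all 9328 genes tested), with a median of 0.26. Cdhr2, the gene of a protocadherin that links neighbouring microvilli at their tips, had 382, 359, 643 and 548 CPM in V3 and 624, 722, 855 and 829 in V4. It rose in each mouse, with V4 of mouse 1 just under V3 of mouse 3 (0.68 ± 0.15, adjusted p = 0.00873). Myo7b, the gene of the myosin in the same tip complex, rose from 137 ± 9.23 to 203 ± 30.6 CPM without overlap (0.55 ± 0.13, adjusted p = 0.0213). Espn, which encodes the actin bundler espin, rose by 0.48 ± 0.13 (adjusted p = 0.0377), and Myo1e, a class I myosin gene, by 0.72 ± 0.20 (adjusted p = 0.0497). Vil1, the gene of villin, had 1008 ± 183 and 1149 ± 199.6 CPM and was not called (adjusted p = 0.49). Of these 4, 0 were called under total-UMI scaling (adjusted p = 0.0623 for Cdhr2, 0.0825 for Myo7b, 0.117 for Espn and 0.126 for Myo1e) and 0 without mouse 4 (0.0672, 0.139, 0.0586 and 0.121). Cdhr2 alone was called without mouse 3, and Cdhr2 and Myo7b without mouse 2.

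Several apolipoprotein genes rose. Enterocytes pack dietary fat into chylomicrons, lipoprotein particles that leave toward the lymph. Of 11 genes of apolipoproteins and chylomicron assembly, 4 rose (1.93% of all genes tested did), 0 fell and 11 had a positive difference (median 0.51). Apoa4 encodes the apolipoprotein most closely tied to fat absorption. It had 4954, 3321, 7493 and 4024 CPM in V3 and 6368, 7251, 14906 and 11596 in V4. Each mouse rose, though V3 of mouse 3 lay above V4 of mice 1 and 2 (1.02 ± 0.17, adjusted p = 0.00111). Apoc3, an inhibitor of triglyceride clearance, rose from 2456 ± 878 to 4427 ± 2134 CPM (0.80 ± 0.15, adjusted p = 0.00225), and Apoa1, the main protein of high-density lipoprotein, from 24885 ± 6372 to 36668 ± 10964 CPM (0.56 ± 0.15, adjusted p = 0.0367). Creb3l3, a transcription factor gene known to drive Apoa4, had 481, 390.3, 413 and 407 CPM in V3 and 554, 568, 584 and 703 in V4. Its zones did not overlap (0.51 ± 0.13, adjusted p = 0.0338). The assembly genes Apob and Mttp had 177 ± 71.8 against 262 ± 148 CPM and 793 ± 183 against 887 ± 141 CPM, and neither was called (adjusted p = 0.326 and 0.655).

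Other lipid genes gave few calls. Npc1l1, the gene of the cholesterol importer of the brush border, rose from 183 ± 54.4 to 268 ± 62.8 CPM (0.56 ± 0.15, adjusted p = 0.0428) and was the 1 call among 7 sterol uptake genes. Of 17 genes of fatty acid uptake and triglyceride synthesis 0 were called (median 0.061, which turned to -0.080 under total-UMI scaling), and of 19 cholesterol synthesis genes 0 were called (median -0.13). Of the 4 apolipoprotein list calls, which include Creb3l3, 1 (Apoc3) was kept without mouse 2, 1 (Apoa4) without mouse 3 and 0 without mouse 4. Without mouse 4 the adjusted p was 0.0576 for Apoa4, 0.0962 for Apoc3, 0.23 for Apoa1 and 0.239 for Creb3l3. Npc1l1 was not called with any 1 of the 4 mice left out (adjusted p = 0.0548, 0.0707, 0.173 and 0.165), and under total-UMI scaling Apoa1, Creb3l3 and Npc1l1 had 0.0741, 0.0989 and 0.118.

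Single genes of digestion and ion transport rose, with no call among sugar transporters. Slc6a19, the gene of the main neutral amino acid importer of the brush border, had 249.6, 163, 228 and 209 CPM in V3 and 306, 335, 344 and 396 in V4. The zones did not overlap (0.70 ± 0.14, adjusted p = 0.0025). It was the 1 call among 9 luminal amino acid and peptide transporters (median 0.072, which turned to -0.080 under total-UMI scaling). The peptide transporter gene Slc15a1 had 286 ± 74.8 and 418 ± 95.1 CPM and was not called (adjusted p = 0.0926). Ace, the gene of angiotensin-converting enzyme, which here trims dietary peptides, had 225, 199, 313 and 221 CPM in V3 and 266, 293, 455 and 418 in V4. Each mouse rose (0.57 ± 0.15, adjusted p = 0.0302), and it was the 1 call among 13 brush-border peptidases. Of 10 sugar transport genes 0 were called (median -0.10): Slc5a1, the sodium-glucose importer gene, had 1825 ± 262 CPM in V3 and 1753 ± 285 in V4 (adjusted p = 0.932). The sucrase-isomaltase gene Sis had 868 ± 349 and 719 ± 194 CPM (adjusted p = 0.751), and the intestinal alkaline phosphatase gene Alpi 633 ± 30.9 and 865 ± 66.3 CPM (adjusted p = 0.0907).

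Slc9a2, the gene of a sodium-proton exchanger, had 80.6, 83.1, 76.4 and 77.4 CPM in V3 and 132, 142, 136 and 152 in V4. The libraries of each zone lay close together with no overlap, and the call held without the mouse term (0.82 ± 0.15, adjusted p = 0.00145, or 0.0499 without the mouse term) and without each mouse in turn. Of 20 genes of sodium, chloride and bicarbonate transport 3 rose (1.93% of all genes tested did): Slc9a2, Clca4a and Clca4b. Slc34a2, a phosphate importer gene, had 109.7, 89.9, 389.8 and 360.4 CPM in V3 and 212, 297, 783 and 594 in V4. It differed more between mice than between zones, and rose in each mouse (1.08 ± 0.26, adjusted p = 0.0423). Slc34a2 was called without mouse 1 only (adjusted p = 0.272, 0.291 and 0.057 without mice 2, 3 and 4). Slc6a19 was not called without mouse 4 (adjusted p = 0.057), nor Ace without mouse 3 or mouse 4 (0.213 and 0.221). Under total-UMI scaling Ace had 0.106 and Slc34a2 0.0553.

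Treh, the gene of trehalase, which splits the disaccharide trehalose, was the 1 call among 5 disaccharidases and phosphatases. It had 169, 109.6, 169 and 133 CPM in V3 and 172, 195, 273 and 260.1 in V4. The lowest V4 value, of mouse 1, lay just above the highest V3 value (0.63 ± 0.14, adjusted p = 0.0106), and the call was lost without mouse 2 (adjusted p = 0.0727), mouse 3 (0.106), mouse 4 (0.175) and under total-UMI scaling (0.0529). HNF4 is a nuclear receptor of enterocytes whose site is shown because it is known to act on villus digestion genes. The 250 bases before the gene, from RefSeq on GRCm38.p6, plus strand of chr9:44672983-44673232, held 1 match to CAAAGTCCA, read on both strands. It lies on the minus strand 71 bases before the start, in capitals:

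Treh: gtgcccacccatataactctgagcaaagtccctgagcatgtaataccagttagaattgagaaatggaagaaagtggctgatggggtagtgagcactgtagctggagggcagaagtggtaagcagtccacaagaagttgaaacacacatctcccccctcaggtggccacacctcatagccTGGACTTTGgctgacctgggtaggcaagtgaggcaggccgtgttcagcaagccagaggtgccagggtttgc

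This motif was in 2 of the 129 risen genes with a listed promoter (1.55%, Treh and Cyp3a11), in 0.587% of the 6641 genes tested that had one and in 0.451% of all 27025 promoters listed. A match describes the letters and is no measured site.

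Jun, Fosb and Maff, genes of AP-1 and its relatives, rose. AP-1 is a pair of leucine zipper proteins from the Jun, Fos and related families, induced within minutes by growth signals and stress. Of 17 immediate early and AP-1 genes, 3 rose (1.93% of all genes tested did), 0 fell and 16 had a positive difference (median 0.59). Jun had 78.5, 39.4, 63.0 and 39.5 CPM in V3 and 128, 101, 174 and 105 in V4, with no overlap between zones (1.22 ± 0.30, adjusted p = 0.0439). Fosb had 4.68, 2.46, 0.787 and 0 CPM in V3 and 11.2, 5.69, 16.4 and 4.08 in V4 (adjusted p = 0.00923). With 1 V3 library at 0, the fitted fold of Fosb is not given. Maff, a small Maf gene, rose from 3.39 ± 1.76 to 10.6 ± 4.19 CPM (1.60 ± 0.41, adjusted p = 0.0312). Fos had 163, 101, 85.0 and 83.0 CPM in V3 and 208, 148, 154 and 169 in V4 and was not called (0.67 ± 0.26, adjusted p = 0.202). Without mouse 3 and without mouse 4 the adjusted p was 0.262 and 0.233 for Jun, 0.291 and 0.0523 for Fosb, and 0.284 and 0.158 for Maff. Jun also had 0.0734 without mouse 1 and Maff 0.0779 without mouse 2, and under total-UMI scaling Jun had 0.0651 and Maff 0.0564. The AP-1 motif TGANTCA, read on both strands, was in the promoters of 12 of 129 risen genes (9.30%), 5.65% of genes tested and 7.82% of all promoters. The 12 count Apol9a and Apol9b separately, though their promoters matched at every aligned position.

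Pmepa1 and Smad7, which both curb SMAD signals of the TGF-beta and BMP pathways, rose. Pmepa1 encodes a membrane protein that curbs SMAD signals and is induced by them. It had 33.8, 30.8, 34.6 and 24.5 CPM in V3 and 80.5, 77.2, 117 and 64.0 in V4. All V4 values were above all V3 values, and the call held without the mouse term (1.44 ± 0.18, adjusted p = 1.01e-05, or 0.00915 without the mouse term) and without each mouse in turn. Pmepa1 lies on the minus strand of chr2:173224458-173276533 of GRCm38. Smad7, the gene of an inhibitory SMAD, had 40.03, 19.7, 40.9 and 40.3 CPM in V3 and 64.0, 43.9, 91.2 and 50.4 in V4. It rose without overlap (0.83 ± 0.18, adjusted p = 0.00828), but not without mouse 2 (adjusted p = 0.0572), mouse 3 (0.136) or under total-UMI scaling (0.0533). Smad7 was the 1 call among 19 genes of the BMP, Notch and EGF pathways (median 0.35), beside 1.93% of all genes tested called higher. Under total-UMI scaling 0 of these genes were called higher and 1 lower. Pmepa1 is outside that list and was named among the largest rises, so it was set beside Smad7 after its values were seen. The GC-rich SMAD motif GGCGCC was in the promoters of 24 of 129 risen genes (18.6%), close to its 19.7% over genes tested.

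Some interferon-stimulated genes rose, and mouse 3 had the highest Isg15 in both zones. Of 23 tested, 3 rose (1.93% of all genes tested did), 0 fell and 21 had a positive difference (median 0.48). Isg15, a ubiquitin-like modifier gene induced by type I interferon, had 43.2, 25.9, 99.2 and 53.7 CPM in V3 and 51.7, 80.5, 262 and 91.2 in V4. It rose in each mouse while the zones overlapped (1.04 ± 0.20, adjusted p = 0.00374). Usp18, which encodes the protease that removes this modifier, rose from 16.9 ± 10.3 to 36.6 ± 22.95 CPM (1.06 ± 0.24, adjusted p = 0.0102). Irf7, the gene of a transcription factor of the interferon response, rose from 143 ± 26.3 to 228 ± 63.3 CPM (0.65 ± 0.15, adjusted p = 0.011). Apol9a and Apol9b, apolipoprotein L genes outside that list, were named among the largest rises and set here after their values were seen. In V3 Apol9a had 40.03, 25.2, 76.4 and 26.1 CPM and Apol9b 20.3, 7.39, 28.3 and 7.90. In V4 Apol9a had 47.6, 66.6, 183 and 105 CPM and Apol9b 30.6, 17.9, 87.9 and 35.4. Both rose in each mouse (Apol9a 1.2 ± 0.21, adjusted p = 0.00161; Apol9b 1.33 ± 0.25, adjusted p = 0.00227), but they are near-identical copies and their reads cannot be told apart here.

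Mouse 3 also had the highest leukocyte marker sum in V3 (264 CPM, against 36.9 to 57.2 in the other mice), which fell by 106 CPM to V4. In mice 1, 2 and 4 the sum was higher in V4 by 106, 10.2 and 37.5 CPM, the same direction as Isg15, and the part of leukocytes in these rises was not tested. Without mouse 3 the adjusted p was 0.0649 for Isg15, 0.181 for Usp18, 0.172 for Irf7 and 0.115 for Apol9b. Without mouse 4 it was 0.0586, 0.0988, 0.0586 and 0.0523, and Usp18 and Irf7 had 0.0596 and 0.0853 without mouse 2. Apol9a was called without each mouse in turn. The promoters of Isg15 and Apol9a are shown because both carry the interferon-stimulated response element, searched on both strands as GAAA, any 2 bases and GAAA again. They are the 250 bases before each gene from RefSeq on GRCm38.p6, with all matched bases in capitals. Isg15 is on the minus strand, chr4:156200819-156201068, with 3 overlapping matches, the first 78 bases before the start. Apol9a is on the minus strand, chr15:77411081-77411330, with 2 overlapping matches on the opposite strand, the first 59 bases before the start.

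Isg15: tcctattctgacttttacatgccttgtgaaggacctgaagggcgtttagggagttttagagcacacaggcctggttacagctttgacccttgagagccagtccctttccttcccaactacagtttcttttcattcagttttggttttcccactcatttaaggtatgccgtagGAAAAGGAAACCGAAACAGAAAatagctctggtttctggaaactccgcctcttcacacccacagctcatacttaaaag
Apol9a: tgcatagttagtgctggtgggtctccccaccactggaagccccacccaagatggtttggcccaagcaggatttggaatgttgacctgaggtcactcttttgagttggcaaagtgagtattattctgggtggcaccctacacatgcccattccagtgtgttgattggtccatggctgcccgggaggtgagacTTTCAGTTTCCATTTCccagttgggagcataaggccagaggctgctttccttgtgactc

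The Apol9b promoter matched that of Apol9a at 228 of 228 aligned positions. The motif was in the promoters of 7 of 129 risen genes (5.43%: Apol9a, Apol9b, Gal3st2, Isg15, Pnrc1, Serpinb6a and Slc25a22), in 3.25% of genes tested and in 3.46% of all promoters. Apol9a and Apol9b are counted separately among the 7, though their promoters matched. Irf7 is not among the 7, which says only that these letters were not found in its window, and no window of Usp18 was searched.

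Among Reg lectin and antimicrobial genes the 2 calls of 21 were the paired genes of an oxidase, while 1.93% of all genes tested rose. Duox2, the gene of dual oxidase, which makes hydrogen peroxide at the apical surface, had 10.4, 16.6, 74.0 and 36.4 CPM in V3 and 19.98, 28.4, 135 and 84.4 in V4. The mice differed several fold, and each rose (0.95 ± 0.21, adjusted p = 0.0107). Its maturation factor gene Duoxa2 rose by 0.81 ± 0.17 (adjusted p = 0.00802), though in mouse 1 it had 34.8 CPM in V3 and 27.6 in V4. The secreted lectin genes Reg3b and Reg3g had 29374 ± 6748 against 24626 ± 4094 CPM and 9415 ± 2587 against 9032 ± 2299 CPM and were not called (adjusted p = 0.646 and 0.918). Without mouse 3 and without mouse 4 the adjusted p was 0.12 and 0.139 for Duox2 and 0.265 and 0.119 for Duoxa2, which had 0.0916 without mouse 2 and 0.0982 with the V3 and V4 libraries alone.

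Of 17 cytochrome P450 genes and their partners, 3 rose (1.93% of all genes tested did) and 0 fell (median 0.27). Por, the gene of the reductase that feeds electrons to these enzymes, had 112, 89.3, 92.1 and 91.7 CPM in V3 and 117, 159, 178 and 166 in V4 (0.68 ± 0.14, adjusted p = 0.00427). Its zones did not overlap, with mouse 1 showing little difference. Cyp3a11, a main drug-metabolizing enzyme gene, rose from 235 ± 135 to 401 ± 237 CPM (0.74 ± 0.16, adjusted p = 0.0102) and Cyp2d26 by 0.45 ± 0.12 (adjusted p = 0.0401). Both have close copies, so their sizes are uncertain. Lgals3, the gene of galectin-3, a lectin carried to the apical surface, rose from 1038 ± 236 to 1840.3 ± 682 CPM (0.79 ± 0.16, adjusted p = 0.00546). Without mouse 3 and without mouse 4, Por had 0.13 and 0.0703 and Lgals3 had 0.173 and 0.0751. Cyp3a11 had 0.0504 without mouse 2 and 0.143 without mouse 4. Cyp2d26 had 0.0708, 0.339 and 0.246 without mice 2, 3 and 4, and 0.141 under total-UMI scaling.

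Mitochondrial genes were read apart by the genome that encodes them. All 11 tested protein genes of the mitochondrial genome had a positive difference (median 0.39), and 1 rose: mt-Co1, a subunit of cytochrome c oxidase, with 1512, 1470.1, 1073 and 1219 CPM in V3 and 1721, 2381, 2235 and 1834 in V4 (0.65 ± 0.17, adjusted p = 0.0367). The zones did not overlap, nuclear copies of such genes make its size uncertain, and it was not called without mouse 3 (adjusted p = 0.267), mouse 4 (0.173) or under total-UMI scaling (0.0758). Of 78 nuclear-encoded genes of oxidative phosphorylation, 63 had a negative difference (median -0.095), 0 fell and 1 rose, Cox6b2. That single rise is near the share over all genes tested, 1.93%. Cox6b2, an isoform gene of cytochrome c oxidase best known from testis, had 8.32, 6.77, 4.72 and 3.95 CPM in V3 and 12.3, 15.4, 18.9 and 14.98 in V4 (1.29 ± 0.30, adjusted p = 0.0127, or 0.21 and 0.124 without mice 3 and 4). The whole mitochondrial share was higher in V4 in 2 of 4 mice, as given above.

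The 18 falls included genes of protein folding. Pdia4 and Pdia6, which encode disulfide isomerases of the endoplasmic reticulum, were the 2 calls of 28 folding and translocation genes (0 higher, median -0.21). Over all genes tested, 0.193% fell. Pdia6 had 88.9, 127, 105 and 90.9 CPM in V3 and 69.9, 91.0, 43.5 and 46.3 in V4 (-0.70 ± 0.17, adjusted p = 0.0191). Pdia4 had 70.7, 109, 85.0 and 62.4 CPM in V3 and 36.4, 68.3, 54.2 and 35.4 in V4 (-0.75 ± 0.16, adjusted p = 0.00779). Each mouse fell in both, with the zones overlapping. Hspa5, the gene of the main chaperone of this compartment, had 295 ± 36.9 and 237 ± 46.2 CPM and was not called (adjusted p = 0.157). Atad3a, Trap1, Hspd1 and Mrps26 encode mitochondrial proteins, a grouping made after their values were seen. Atad3a, an inner membrane ATPase gene, had 67.6, 73.3, 48.0 and 41.9 CPM in V3 and 49.9, 29.3, 24.6 and 25.9 in V4 (-0.81 ± 0.17, adjusted p = 0.00662). Trap1, the gene of the mitochondrial chaperone of the Hsp90 family, fell by 0.68 ± 0.16 (adjusted p = 0.0156). Hspd1, the gene of the chaperonin Hsp60, had 119, 204, 117 and 73.5 CPM in V3 and 75.8, 124, 69.8 and 76.2 in V4, lower in 3 of 4 mice (-0.55 ± 0.15, adjusted p = 0.0367). Hspd1 was the 1 call of 12 heat shock and chaperone genes (median -0.16). Mrps26, a mitochondrial ribosomal protein gene, fell by 0.71 ± 0.18 (adjusted p = 0.0312) and was the 1 call of 75 such genes (median -0.16).

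Klf5, a transcription factor gene known for its role in dividing crypt cells, had 293, 289, 362 and 394 CPM in V3 and 219, 215, 293 and 147 in V4. It fell in each mouse, and V4 of mouse 3 reached the V3 level of mice 1 and 2 (-0.59 ± 0.15, adjusted p = 0.0239). Its relative Klf4, known for the opposite role, had 137 ± 75.1 and 239.5 ± 124 CPM and was not called (adjusted p = 0.113). Myl7, a myosin light chain gene best known from heart, had 33.3, 24.01, 29.9 and 39.5 CPM in V3 and 17.6, 18.7, 17.2 and 14.98 in V4, with no overlap (-0.86 ± 0.22, adjusted p = 0.0306). The remaining named falls were Usp50 (-0.69 ± 0.15), the fatty acid elongation gene Hacd1 (-0.68 ± 0.18), the stress granule gene G3bp1 (-0.53 ± 0.14) and the lysosomal gene Psap (-0.50 ± 0.13). Without mouse 3, 0 genes fell. Without mouse 4, Pdia4 (adjusted p = 0.0307), Atad3a (0.0432) and Hspd1 (0.0241) kept their calls among those named. Without mouse 2, Pdia4 (0.0484), Trap1 (0.0264) and Myl7 (0.0414) did. Mrps26, Hacd1, G3bp1, Hspd1 and Myl7 were not called without mouse 1 (adjusted p = 0.101, 0.112, 0.0742, 0.0966 and 0.0744). With counts thinned to the smallest library, calls were lost for Atad3a (adjusted p = 0.0959), Trap1 (0.14), Hacd1 (0.113), Psap (0.106), G3bp1 (0.0606) and Hspd1 (0.0569). Pdia4, Pdia6, Klf5, Myl7, Mrps26 and Usp50 kept their calls with thinning.

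Most ribosomal protein and cell division genes had negative differences, with no call under TMM scaling. Of 80 cytosolic ribosomal protein genes 77 were negative (median -0.28) and 51 were lower in V4 in 4 of 4 mice, with 0 called. Among all 9328 genes tested, 4822 were negative and 1175 (12.6%) were lower in 4 of 4 mice. Rplp0 had 1896, 2253, 1349.8 and 1791 CPM in V3 and 1785, 1800.0, 801 and 1426 in V4 (-0.36 ± 0.13, adjusted p = 0.171). Of 24 cell division genes 23 were negative (median -0.43), with 0 called, and of 20 aminoacyl-tRNA synthetase genes 17 were negative (median -0.26), with 0 called. Under total-UMI scaling 7 ribosomal protein genes, 7 genes of folding in the endoplasmic reticulum and 1 synthetase gene were called lower, with 0 called higher in each set. Dividing-cell markers were lower in V4 in 3 of 4 mice, as given above, and their part in these sets was not tested.

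**Figure D4:**
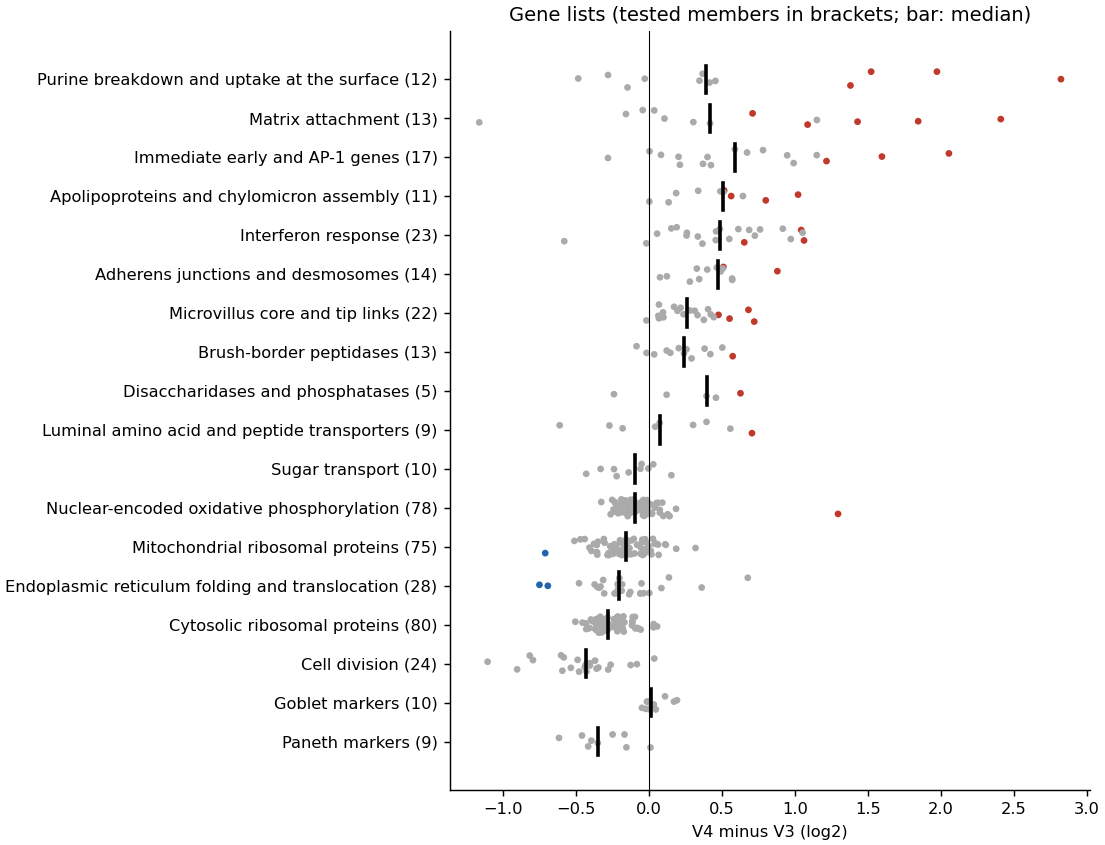
Log2 difference of V4 minus V3 (x axis) for the tested members of 18 gene lists (rows, number tested in brackets), with called genes in red (higher) or blue (lower), others in grey, and a bar at the list's median. The purine list, which holds the sort gene Nt5e here, and the matrix attachment and AP-1 lists reach above 1.0. The interferon response, apolipoprotein and nuclear-encoded oxidative phosphorylation lists also do. Cytosolic ribosomal protein genes lie mostly below 0 with none called.

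The V3 to V4 step was set beside the other steps along the villus. From V2 to V3, 280 genes rose (3%) and 167 fell (1.79%), and from V4 to V5, 0 were called in either direction (0%). Both steps share libraries with the comparison, so the difference of steps itself was tested. Against the V2 to V3 step, 0 genes differed (463 at an unadjusted p under 0.05, 4.96% of genes, smallest adjusted p = 0.575). Against the V4 to V5 step, 0 genes differed, with 1108 at an unadjusted p under 0.05 (11.9%, smallest adjusted p = 0.0761). Genes leading that list were Susd2 (-1.61 ± 0.31 between the steps, adjusted p = 0.0761), Clca4a, Ace, Gprc5a and Slc6a19, whose rise to V4 was the larger step, and Trap1, Pdia6, Klf5, Pdia4 and Myl7 in the other direction. Without mouse 1, 95 genes differed between these steps, without mouse 2 there were 2, and without mouse 3 or mouse 4 there were 0. V5 lay nearer V1 than V4 did on the first principal component in mice 2, 3 and 4, so the order of V4 and V5 in these libraries is not firm.

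**Figure D5:**
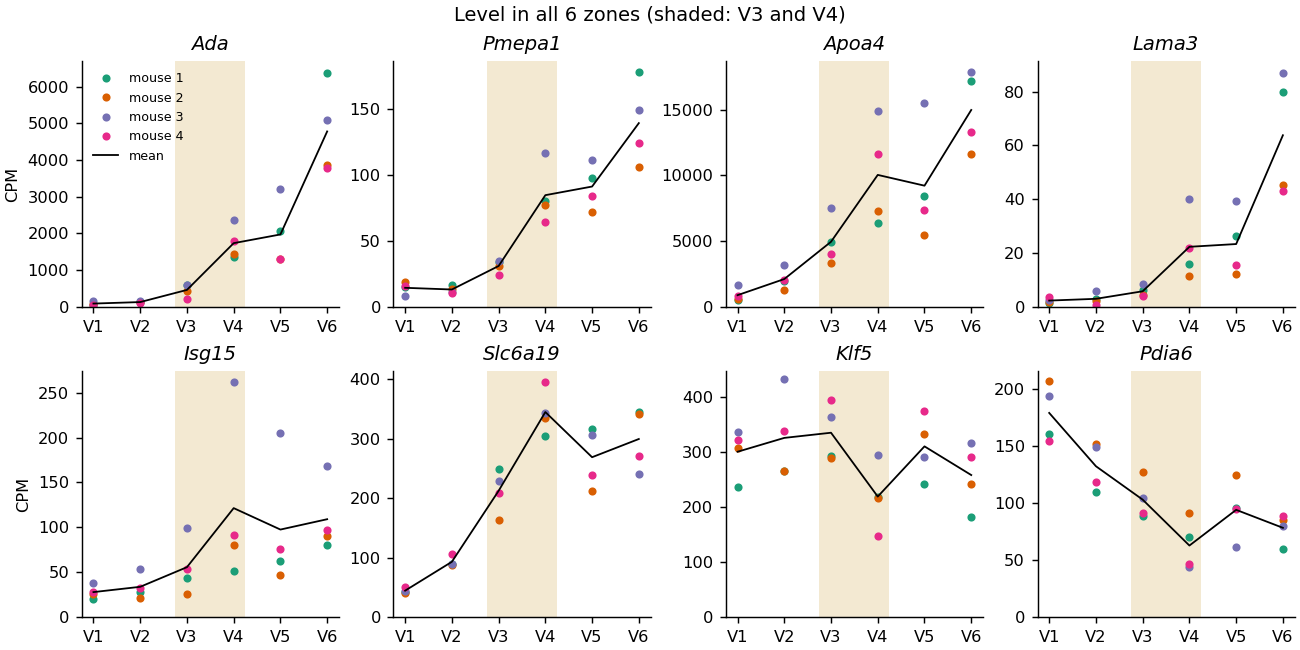
CPM of 8 genes (y axes) in zones V1 to V6 (x axis), with 1 point per mouse, a line through the means and V3 and V4 shaded. Ada, Pmepa1, Apoa4 and Lama3 are highest on average in V6, Isg15 and Slc6a19 in V4, and Klf5 and Pdia6 have their lowest mean in V4. The mice do not all share the V4 extremes. Isg15 is higher in V6 than in V4 in mice 1, 2 and 4, and Slc6a19 in mice 1 and 2. Klf5 is lower than in V4 in V6 of mouse 1 and V5 of mouse 3, and Pdia6 in V6 of mice 1 and 2.

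The same genes were also followed in steps that share no library with V3 and V4. These steps come from the same fit, with the same spread estimates and mouse terms. The overlap of the called lists is therefore no independent test. From V5 to V6, 137 genes rose (1.47%) and 3 fell (0.0322%). Of these rises 55 were also among the 180, which is 40.1% of the V6 list and 30.6% of the V4 list. Of the 180 genes, 178 had a positive difference from V5 to V6 (median 0.48, against 0.011 for all genes tested). From V1 to V2, 858 genes rose (9.2%) and 534 fell (5.72%). The rises shared 54 genes with the 180 (6.29% of the V2 list and 30.0% of the V4 list), and 1 of the 180 fell there. From V1 to V2, 136 of the 180 had a positive difference (median 0.33, against 0.010 for all genes tested). Of the 18 falls, 4 also fell from V1 to V2 and 0 from V5 to V6, where 1 of them, Myl7, rose (1.65 ± 0.18, adjusted p = 8.18e-08). Their difference was negative for 15 from V1 to V2 and for 10 from V5 to V6. Of the 180 genes, 135 had their highest mean in V6, 43 in V4 and 2 in V1, and of the 18, 16 had their lowest mean in V4. The V4 values chose these genes, so the zone counts are a description. Ada had means of 89.6 CPM in V1, 131 in V2, 1974 in V5 and 4782 in V6, and Lama3 2.33, 2.99, 23.3 and 63.8. Slc6a19 had 44.3, 92.9, 269 and 299.8 CPM in the same zones, below its V4 mean of 345 ± 37.8.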

How the data were processed

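The authors deposited UMI counts, not normalized, as whole numbers for each gene in 24 libraries. The submitters' processing notes name bcl2fastq 2.15.0.4 and the build GRCm38. For the aligner, its gene models and its filters: not given in the sources used here. Of 17811 genes, 131 had no count. Coordinates come from GENCODE M21, and symbols from the deposited table. Promoters matched by symbol for 129 of the 180 risen genes.

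The test was run in edgeR 4.0.16 under R 4.3.3: filterByExpr by zone (minimum count 10, minimum total 15) left 9328 genes, TMM scaled the libraries, and a robust quasi-likelihood model with zone and mouse terms over all 24 libraries (15 residual degrees of freedom) gave V4 minus V3 and the other contrasts. All 24 share 1 estimate of the spread, since 4 pairs alone give little. P-values were adjusted over all genes tested by Benjamini-Hochberg. Library values were tested by exact two-sided sign-flip permutation over 4 mice. Motifs were searched in the 250 bases before each start. The test was also run on counts simulated from its own fitted model, which cannot show how well that model fits these data.

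Zones of a number come from the same mouse. Deviations from the zone means correlated at 0.323 to 0.615 between V3 and V4 of a mouse (mean -0.15 between mice). Within a zone, libraries differed by 5.19 to 13.9 times sampling noise over 12 pairs, so none are copies. The deposited index column, read here as a pool label that its header does not state, is the same for V3 and V4 of each mouse.

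The named genes were the 15 largest rises and 15 largest falls among called genes that had one direction in 4 of 4 mice, averaged 20 CPM or more and carried an established name (11 falls qualified); up to 4 members with the smallest p and the most abundant one of each of 61 lists; Nt5e and Dpp4; and 5 genes in each direction of each step difference. The 5 most abundant genes of V3 and V4 were also in the rule. Genes outside it are Muc3, Sfn, Afp and some of those given as not called or as holding a motif. The comparison, the lists and the rule were chosen with earlier results of these data known. Alternatives were no mouse term, V3 and V4 libraries alone, DESeq2 size factors, total-UMI scaling, other filters, removal of mitochondrial genes, thinning, a goblet or Paneth score, DESeq2 1.42.0, limma-voom (limma 3.58.1) and leaving out each mouse. Figures used matplotlib. A few selected genes are not reported here. The gene p-values set V4 minus V3 against the spread left after the zone and mouse terms over all 24 libraries. They cover these 4 animals only.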

Additional observations from a re-analysis of the deposited data

Results flagged for a closer look

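Of 82 groups of 4 libraries checked for 1 library far from the others (the named rises and falls, the sort genes and the library values, in V3 and in V4), 3 were marked, where chance marks about 1 in 20. Dpp4 had 381 CPM in V3 of mouse 2, against 488 to 501 CPM in the other 3 mice. The summed Paneth markers had 22951 CPM in V3 of mouse 3, against 6079 to 7291 CPM in the others. The summed leukocyte markers had 264 CPM in V3 of mouse 3, against 36.9 to 57.2 CPM in the others. Without mouse 3, 31 genes rose and 0 fell, and with a Paneth score as a covariate, chosen after seeing the data, 198 rose and 22 fell.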

How the results depend on the processing

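The 198 calls kept their direction under every alternative in which they were tested (at least 112 of them under each). With the mouse term, the counts higher and lower were 325 and 78 with the V3 and V4 libraries alone, 78 and 99 with total-UMI scaling, and 31 to 242 and 0 to 27 with 1 mouse left out. The lower count was 74 with no filter, 49 at a mean of at least 50 CPM and 28 with DESeq2. Without the pairing by mouse (no replicate block) the counts were 6 and 0 over 24 libraries and 2 and 0 over 8. Of 66 named called genes, 5 kept their call with no block, 46 with total-UMI scaling, 57, 34, 17 and 16 without mice 1, 2, 3 and 4, 51 with thinning and 66 with DESeq2 size factors. With thinning, 117 of the 180 rises and 8 of the 18 falls kept their call. Genes differing between the V3 to V4 and V4 to V5 steps numbered 0 to 95 with 1 mouse left out. The causes were not tested. Depth limits genes near 5 CPM, which rest on few UMIs in V4 of mouse 4.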

Other observations

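Afp, the gene of alpha-fetoprotein, a serum protein of fetal liver and gut, had the largest fitted difference of all called genes and was named after its values were seen, since its mean was under 20 CPM. It had 0.520, 1.23, 1.57 and 0 CPM in V3 of mice 1 to 4 and 21.7, 99.95, 27.1 and 0 CPM in V4 (adjusted p = 0.0169, or 0.122 without the mouse term and 0.157, 0.181 and 0.0812 without mice 2, 3 and 4). In mouse 4 it had 0 UMIs in both zones, so no fold is given there, and 9.44 CPM in V5 and 174 in V6.

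Hormone genes of enteroendocrine cells, the rare endocrine cells of the epithelium, varied widely. Sst (somatostatin) had 153, 1.23, 37.8 and 93.3 CPM in V3 and 4.70, 0, 4.93 and 14.98 in V4, lower in 4 of 4 mice and not called (adjusted p = 0.304). Pyy (peptide YY) had 101, 21.5, 19.7 and 16.6 CPM in V3 and 4.11, 0, 9.03 and 2.72 in V4, also lower in 4 of 4 mice and not called (adjusted p = 0.0865). Gip, the gene of an incretin hormone, had 669, 182, 324 and 1096 CPM in V3 and 84.0, 52.0, 569 and 214 in V4 and was not called (adjusted p = 0.294). Tph1, the gene of the enzyme that starts serotonin synthesis, had 0.52, 1.23, 2.36 and 2.37 CPM in V3 and 9.40, 6.5, 2.46 and 2.72 in V4, higher in 4 of 4 mice and not called (adjusted p = 0.0937). Chga, the gene of chromogranin A, had 29.6, 23.4, 39.4 and 63.2 CPM in V3 and 113, 88.6, 78.8 and 47.7 in V4, higher in 3 of 4 mice and not called (adjusted p = 0.17). Of 11 enteroendocrine markers tested, 0 were called, 5 had a positive and 6 a negative difference.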
